A study of Mus musculus with 9 samples.

Results

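Ahnak and Ahnak2 encode 2 of the giant scaffold proteins of the mouse, and they are 2 of the 23018 genes in the count table, both among the 14831 genes with enough reads to be tested. They were chosen on their levels in these same 9 libraries, so those levels and the differences between tissues are given as a description, with a standard error (SE) and no test. The libraries held RNA from lymphatic endothelial cells (LECs), the cells that line lymphatic vessels, sorted as CD45-CD31+PDPN+ cells from 3 tissues: the meninges (the membranes around the brain), the diaphragm and the skin. All mice were untreated wild-type C57/Bl6 males, 10 weeks old, and each tissue had 3 libraries, so the question open to these data is how the LECs of the 3 tissues differ. The labels do not say whether the libraries came from separate mice or from pools, so a p-value below measures only the spread between these libraries.

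AHNAK is a very long, repetitive protein that lies under the plasma membrane and in the cytoplasm. It binds the complex of S100A10 and annexin A2, the membrane repair protein dysferlin, actin and the beta subunit of L-type calcium channels, and it is known from epithelia and from endothelia with barrier properties. AHNAK2 is its closest large relative, and periaxin (Prx), a Schwann cell scaffold, is a shorter protein with a related domain at its start.

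Both transcripts are built from repeats, and short stretches of them are shown here because the repeats bear on how reads can be counted. In the GENCODE M21 gene models (build GRCm38), Ahnak (ENSMUSG00000069833, chromosome 19, plus strand) has 19938 nt of exon sequence, 87.8% of it in 1 exon of 17498 nt. Ahnak2 (ENSMUSG00000072812, chromosome 12, minus strand) has 14163 nt, and its longest annotated exon holds 5443 nt, or 38.4%. The annotation splits Ahnak2 into abutting models, of which 3 were joined here into 1 transcript model. Its 38.4% is therefore not comparable with the 87.8% of Ahnak. No other annotated gene overlapped either of them. The deposited counts were made on mm9, so no genome coordinates are given. The capitals below mark, for each gene, an 18-nt run that recurs exactly along the transcript, and positions count from 1 at the 5′ end of the transcript model.
Ahnak copy 1, positions 4005 to 4094: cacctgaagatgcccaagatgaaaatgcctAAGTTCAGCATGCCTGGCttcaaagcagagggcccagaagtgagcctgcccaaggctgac
Ahnak copy 2, positions 4377 to 4466: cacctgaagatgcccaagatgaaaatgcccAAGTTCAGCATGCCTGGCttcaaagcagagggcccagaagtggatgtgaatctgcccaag
Ahnak copy 3, positions 4761 to 4850: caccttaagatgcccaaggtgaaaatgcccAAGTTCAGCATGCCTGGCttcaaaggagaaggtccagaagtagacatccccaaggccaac
Ahnak copy 4, positions 5133 to 5222: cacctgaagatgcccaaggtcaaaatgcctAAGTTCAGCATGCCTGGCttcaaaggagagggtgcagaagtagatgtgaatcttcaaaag
Ahnak2 copy 1, positions 1544 to 1633: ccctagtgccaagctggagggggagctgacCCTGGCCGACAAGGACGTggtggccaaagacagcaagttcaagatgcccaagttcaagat
Ahnak2 copy 2, positions 2063 to 2152: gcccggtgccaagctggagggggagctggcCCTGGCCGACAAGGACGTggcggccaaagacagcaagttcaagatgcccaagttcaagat

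Each run had 18 copies in its gene. In Ahnak they lay between positions 4035 and 13950 of a transcript model of 18100 nt, and the commonest distance from one copy to the next was 384 nt, or 128 codons, found in 8 of 17 gaps. In Ahnak2 they lay between positions 1574 and 10094 of the 14163 nt, and 11 of 17 gaps measured 519 nt, or 173 codons. The Ahnak2 repeats were closer to identical: the first 4 Ahnak2 copies matched each other at 85 to 90 of 90 bases, and copies 3 and 4 were the same as copy 2. The 4 Ahnak copies matched at 69 to 80 of 90 bases. Bases were compared position by position with no gaps allowed. Where Ahnak copies differ by inserted bases, the later bases fall out of step, so these counts can understate their likeness. Windows of 50 nt that occurred more than once within the gene made up 21.3% of Ahnak and 57.0% of Ahnak2, and 0.0% of the windows of either gene occurred in another gene. The genes shared 14 words of 15 nt with each other and 0 words of 18 nt, so reads of Ahnak and of Ahnak2 can be told apart. GC content was 47.6% for Ahnak and 63.2% for Ahnak2.

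**Figure D1:**
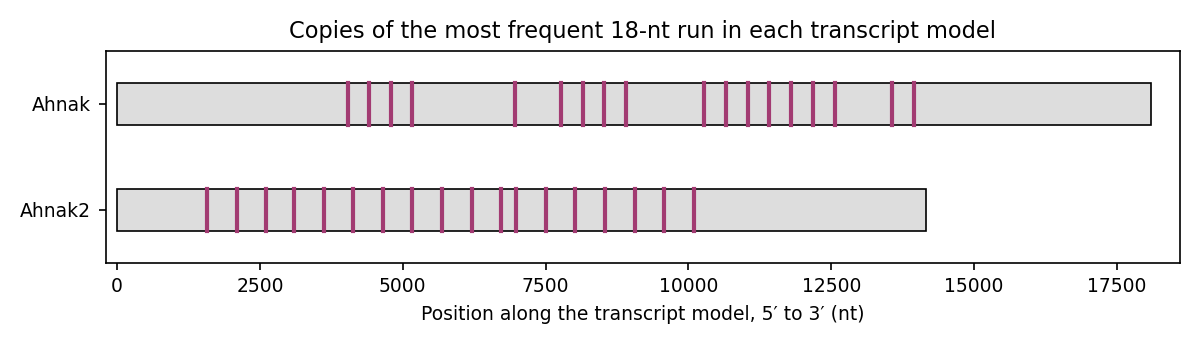
Map of the Ahnak and Ahnak2 transcript models to scale, with the position in nt from the 5′ end on the x axis and a mark for each of the 18 exact copies of the 18-nt run in each gene. The copies lie between positions 4035 and 13950 in Ahnak and between 1574 and 10094 in Ahnak2.

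The libraries held 26075366 to 34592850 counts. Levels are given as CPM, the counts in every 1000000 counts of a library after TMM scaling. Comparisons between genes that allow for length use CPM per kb of exon. Places by count, ratios of counts and the most abundant genes of a list take no account of length. LEC markers were present in every library: 7 or 8 of the 8 LEC markers reached 1 CPM, and Ccl21a, at or below 1.354 CPM, was the weak one. The summed level of these markers was 19680 to 20450 CPM in skin, 13810 to 19730 CPM in diaphragm and 6345 to 15130 CPM in meninges. Fibroblast markers summed to 111.6 to 1082 CPM in skin, 663.1 to 1446 CPM in diaphragm, and 1384, 8006 and 7846 CPM in meninges replicates 1, 2 and 3. Skeletal muscle markers, with the titin gene Ttn among them, ran from 536.0 to 1494 CPM in diaphragm. They ran from 17.19 to 36.9 CPM in meninges and from 81.23 to 269.2 CPM in skin. Mitochondrial ribosomal RNA took 10.78% to 22.93% of counts in meninges, 19.03% to 28.97% in diaphragm and 27.02% to 30.78% in skin. In such bulk libraries, fewer cells of a type and less RNA per cell cannot be told apart.

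Ahnak was among the most abundant messages in all 9 libraries. It stood at 3026, 3418 and 3673 CPM in meninges, at 4608, 5982 and 6210 CPM in diaphragm, and at 7805, 7495 and 6940 CPM in skin (replicates 1 to 3). The ranges of these scaled levels did not overlap: every meninges library lay below every diaphragm library, and every diaphragm library below every skin library. The means were 3372 ± 326 CPM in meninges, 5600 ± 866 CPM in diaphragm and 7414 ± 438 CPM in skin (SD, n = 3). Between 96650 and 201691 reads per library stood behind these values, so counting error was small beside the spread between libraries. Ahnak took 0.381% ± 0.045 of all counts in meninges, 0.552% ± 0.064 in diaphragm and 0.658% ± 0.084 in skin. By this share, which is not scaled, diaphragm and skin did overlap. Skin replicate 3 (0.5625%) lay below diaphragm replicates 2 (0.5984%) and 3 (0.5789%). Among 15299 protein-coding genes of the nuclear genome it had the most counts in all 6 diaphragm and skin libraries. In meninges it came at place 4, 4 and 3, behind Mmrn1, Flt4 and Sptbn1 in replicate 1, Hmgb1, Igfbp5 and Sparc in replicate 2, and Igfbp5 and Sparc in replicate 3. Mmrn1 and Flt4 are LEC genes, and Sparc and Igfbp5 encode secreted proteins of the matrix and of insulin-like growth factor binding.

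A long transcript yields more reads, so Ahnak was also ranked after division by length. Per kb of exon, Ahnak stood at 169.1 ± 16.4 CPM in meninges, 280.9 ± 43.5 CPM in diaphragm and 371.8 ± 22.0 CPM in skin, and its place among the 22906 genes with a length was 64 to 71, 38 to 50 and 32 to 35. It stayed among the 71 highest in all 9 libraries, but was no longer first.

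Ahnak2 was far lower and had a different pattern over the tissues. It stood at 207.4, 90.58 and 104.8 CPM in meninges, at 192.7, 202.2 and 257.7 CPM in diaphragm, and at 711.0, 466.7 and 811.5 CPM in skin. All 3 skin libraries lay above all 6 others, whereas meninges and diaphragm overlapped, because meninges replicate 1 fell among the diaphragm libraries. The means were 134.3 ± 63.8 CPM in meninges, 217.6 ± 35.1 CPM in diaphragm and 663.1 ± 177 CPM in skin, from 2899 to 18372 reads per library. Its place by count was 98 to 175 in skin, 484 to 873 in diaphragm and 637 to 1909 in meninges. Per kb of exon, Ahnak2 stood at 9.48 ± 4.50 CPM in meninges, 15.4 ± 2.48 CPM in diaphragm and 46.8 ± 12.5 CPM in skin.

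**Figure D2:**
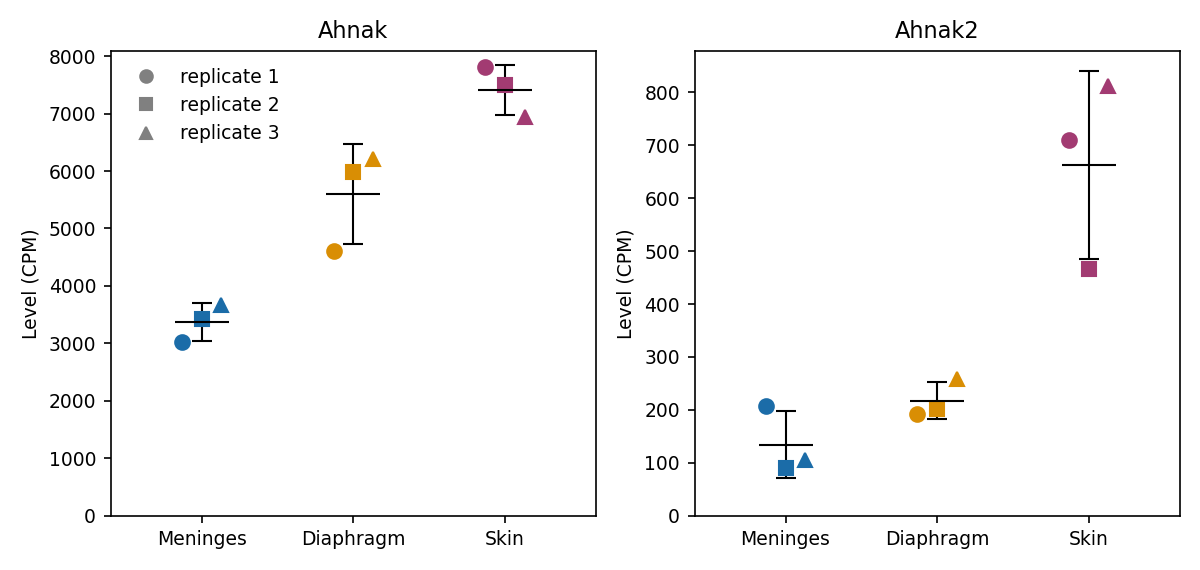
Levels of Ahnak and Ahnak2 in CPM (y axis, starting at 0) in the 3 libraries of each tissue, with points for libraries and lines for the mean ± SD. Ahnak steps up from meninges (3026 to 3673) to diaphragm (4608 to 6210) to skin (6940 to 7805), whereas Ahnak2 is set apart only in skin (466.7 to 811.5).

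The order of the levels was thus meninges, diaphragm, skin for Ahnak, with no overlap between neighbours in CPM after scaling. Ahnak was 0.73 lower on the log2 scale in meninges than in diaphragm (log2 difference -0.73, SE 0.19), a diaphragm mean 1.66 times the meninges mean. Against skin it was lower by more (-1.14, SE 0.19), and the skin mean was 2.20 times the meninges mean. The step from diaphragm to skin was the smallest (-0.40, SE 0.19; 1.32 times). With mitochondrial ribosomal RNA left out of the counts, these differences were -0.73, -1.14 and -0.41. For Ahnak2 the order of the means was the same, but meninges and diaphragm did not differ beyond their spread (-0.70, SE 0.38; 1.62 times). The skin mean was 4.94 times that of meninges (-2.30, SE 0.40) and 3.05 times that of diaphragm (-1.61, SE 0.39).

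These differences chose the genes, so the share of all genes with a like pattern is given as a background from which nothing is read. In CPM after scaling, libraries did not overlap for 6.7% of tested genes with meninges below diaphragm. The share was 7.34% with meninges below skin and 5.95% with diaphragm below skin. The full order seen for Ahnak, meninges below diaphragm below skin with no overlap at either step, was shared by 59 genes, or 0.398%. Ahnak2 did not have that order.

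The levels of Ahnak were close between libraries of 1 tissue. Its coefficient of variation was 9.68% in meninges, 15.5% in diaphragm and 5.91% in skin. The pooled SD within tissues was 0.17 on the log2 scale against a median of 1.63 over all tested genes, and 0.135% of tested genes had a smaller one. Much of that median comes from genes of low level, yet of the 12 genes with an average level within 1 log2 unit of Ahnak, 0 had a smaller SD, and their median was 0.40. Ahnak2 was ordinary in this respect: its pooled SD was 0.46, and 411 of the 802 genes of similar level had a smaller one. The coefficient of variation of Ahnak2 was 47.5% in meninges, 16.1% in diaphragm and 26.7% in skin.

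The balance between the genes shifted toward Ahnak2 in skin. For every 100 Ahnak counts there were 9.109, 6.227 and 11.69 Ahnak2 counts in skin, 4.182, 3.38 and 4.15 in diaphragm, and 6.856, 2.651 and 2.853 in meninges. The ratio is taken within a library and so does not depend on scaling. Skin was above diaphragm without overlap, but meninges replicate 1 lay above the lowest skin library. Per kb of exon, Ahnak2 stood at 12.7% ± 3.85 of the Ahnak level in skin, 5.50% ± 0.64 in diaphragm and 5.80% ± 3.34 in meninges.

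Because the Ahnak2 repeats are closer to identical, a counting step that drops reads with several matches would take more from Ahnak2 than from Ahnak. The sources used here do not say how the authors treated such reads. If all such reads had been dropped, the levels would be divided by the sequence that occurs once. That is 78.7% of the 18100-nt Ahnak model and 43.0% of the 14163-nt Ahnak2 model. Per kb of that sequence, in the order meninges, diaphragm and skin, Ahnak would stand at 237.5 ± 22.9, 394.3 ± 61.0 and 521.9 ± 30.9 CPM, and Ahnak2 at 22.1 ± 10.5, 35.9 ± 5.8 and 109.3 ± 29.2 CPM. The Ahnak model is shorter than the 19938 nt of exon used above, so the Ahnak shift also holds that change of length. Ahnak2 stayed below Ahnak in each tissue on either length, and the differences between tissues do not depend on this choice.

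The LEC markers did not move alike. Between meninges and diaphragm, Flt4 (2386 ± 995 and 2473 ± 478 CPM) and Pdpn (142.0 ± 47.3 and 159.9 ± 76.2 CPM) were close. Lyve1 (1605 ± 898 and 3715 ± 1064 CPM), Prox1, Reln, Mmrn1 and Pecam1 had lower means in meninges. The sum of the 8 markers moved with the tissue. Both genes were therefore also set against that sum in the same library, a scale chosen after seeing the data. On that scale the meninges values of Ahnak overlapped those of the other tissues, and skin stayed above diaphragm by a small step. Its level per 100 CPM of summed LEC markers was 33.37, 33.39 and 31.47 in diaphragm, 19.99, 53.86 and 33.52 in meninges, and 38.16, 38.08 and 34.73 in skin. Meninges replicate 2, with the lowest LEC sum and the highest fibroblast sum, gave the highest value, and replicate 1 the lowest. The log2 difference between meninges and diaphragm became 0.01, that between meninges and skin became -0.16, and that between diaphragm and skin became -0.18. Divided instead by Prox1, the transcription factor that specifies LECs, these differences were 0.06, -0.26 and -0.32. No other single marker, such as Flt4, was used as a scale. What part other cells had in the Ahnak counts was not tested.

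Ahnak2 kept its excess in skin on both scales. Per 100 CPM of summed LEC markers it stood at 3.476, 2.371 and 4.06 in skin, 1.396, 1.129 and 1.306 in diaphragm, and 1.371, 1.428 and 0.9564 in meninges, with skin above all 6 others. The log2 difference between meninges and skin was -1.39, and that between diaphragm and skin was -1.34. Per Prox1 both were -1.49. Between meninges and diaphragm it was -0.05 per LEC marker sum and 0.00 per Prox1.

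**Figure D3:**
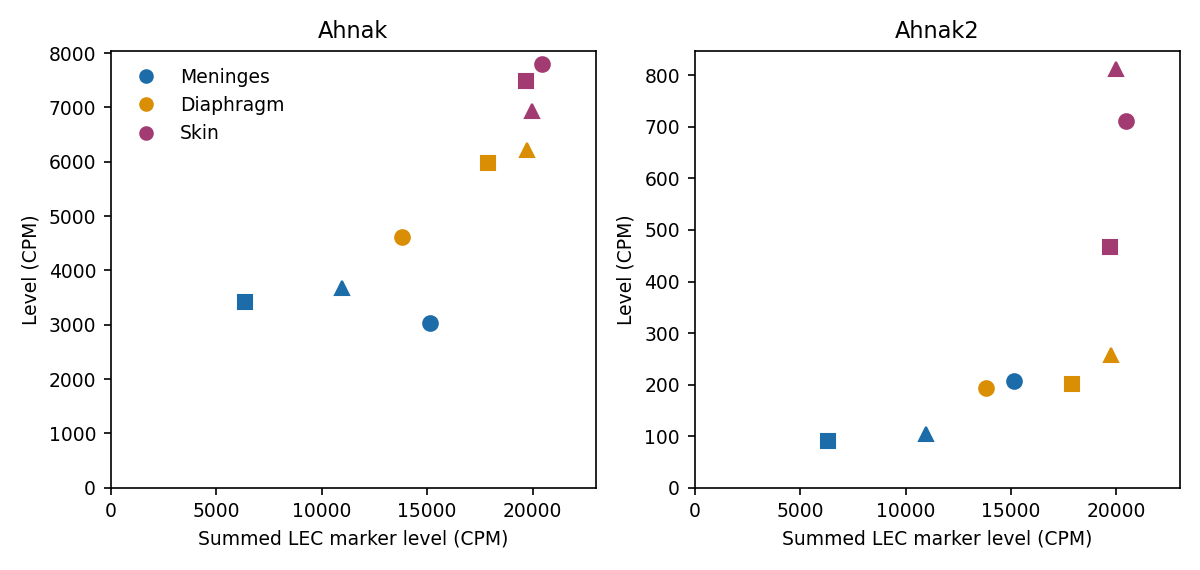
Level of Ahnak and of Ahnak2 in CPM (y axis) against the summed CPM of the 8 LEC markers of the same library (x axis), with 1 point per library coloured by tissue. The meninges libraries spread from 6345 to 15130 on the x axis, and the skin libraries sit together at 19680 to 20450 with the highest levels of both genes.

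Meninges replicate 1 was the meninges library with the highest LEC sum and the lowest fibroblast sum. It also had the highest sum of blood endothelial markers of all 9 libraries (3824 CPM). That sum was 1365 and 2341 CPM in meninges replicates 2 and 3, 1444 to 2573 CPM in diaphragm and 1181 to 1421 CPM in skin. What part blood endothelial cells had in the values was not tested. Meninges replicate 1 was also compared alone with the other tissues. Ahnak was then still lower in meninges, by -0.89 against diaphragm and -1.32 against skin on the log2 scale. Ahnak2 was at -0.07 against diaphragm and -1.70 against skin. The Ahnak2 value for meninges against diaphragm therefore rests on replicates 2 and 3.

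Other genes for giant proteins were set beside Ahnak and Ahnak2 for their length: spectrins, plakins and nesprins, which link membranes, junctions or nuclei to the cytoskeleton, the sarcomere filaments titin and nebulin, and giants of other kinds such as ubiquitin ligases. By the tissue means per kb of exon, 0 of 46 such genes stood above Ahnak in any of the 3 tissues. Sptbn1, a spectrin under the plasma membrane, came nearest, at 151.7 ± 22.99 CPM in meninges, 253.2 ± 43.0 CPM in diaphragm and 271.4 ± 15.8 CPM in skin. Library by library, Sptbn1 stood above Ahnak in meninges replicate 1 (177.2 against 151.7 CPM per kb) and in diaphragm replicate 2 (302.6 against 300.0), and no other of these genes did in any of the 9. The mean ± SD ranges of Sptbn1 and Ahnak overlapped in meninges and diaphragm and lay apart in skin. Above Ahnak2 stood 22 of the 46 in meninges and 18 in diaphragm. In skin there were 7, among them Sptbn1, Utrn and Plec.

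**Figure D4:**
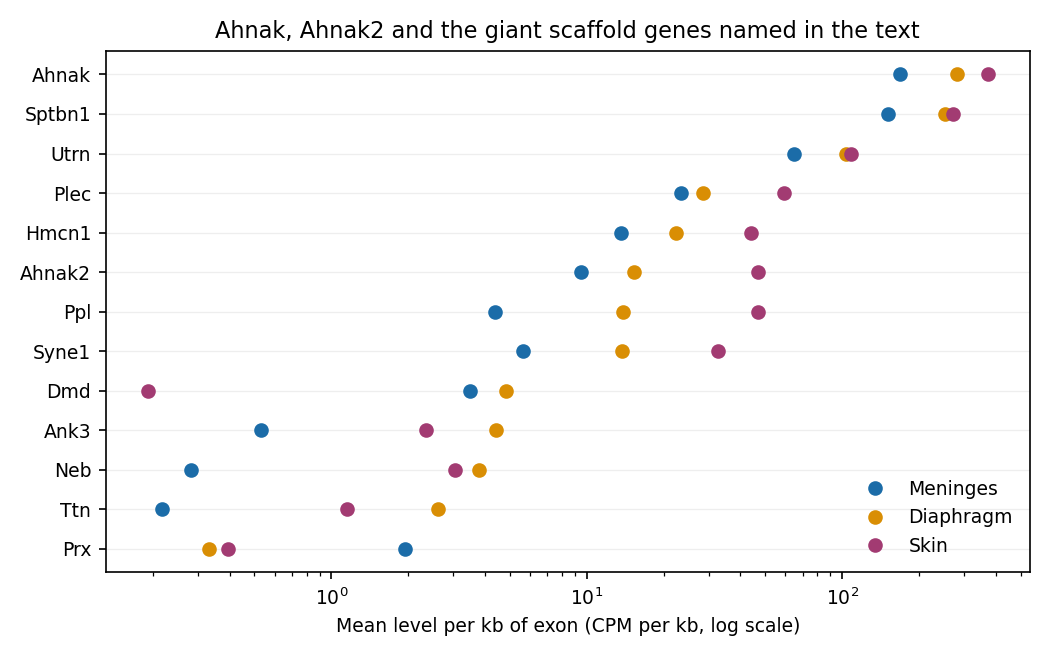
Mean CPM per kb of exon (log axis) of Ahnak, Ahnak2 and the giant scaffold and linker genes named in the text, by tissue. In each tissue Ahnak lies to the right of the other genes plotted, at 169.1 in meninges, 280.9 in diaphragm and 371.8 in skin, with Sptbn1 next.

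Several of these giants differed between tissues in the test over all genes (edgeR quasi-likelihood test, Benjamini-Hochberg adjusted p under 0.05). For meninges against diaphragm, that test called 0.169% of the 14831 genes higher and 0.175% lower. For meninges against skin, it called 0.748% higher and 0.573% lower. Without scaling factors the latter split moved from 111 higher and 85 lower to 156 higher and 56 lower. Other call rules passed different shares of all genes, given here as the background for the list counts that follow. At an unadjusted edgeR p under 0.05, 10.1% of genes passed for meninges against diaphragm, 13.8% for meninges against skin and 11.8% for diaphragm against skin. DESeq2 called 4.53%, 8.14% and 5.85% in the same order, and limma voom called 1.35%, 2.79% and 0.00674%. Of 43 giants tested, 2 had less RNA in meninges than in diaphragm and 0 had more: Ank3, a membrane adaptor of the spectrin skeleton (log2 -3.06, SE 0.52, adjusted p = 0.02234), and the muscle giant Ttn (-3.60, adjusted p = 0.04777). The Ttn call stands beside the muscle marker sums given above, but those sums include Ttn itself. Ttn was at 161.2 to 572.4 CPM in diaphragm, 17.09 to 35.18 CPM in meninges and 55.78 to 269.2 CPM in skin. It thus made up nearly all of the meninges sums and all of the sum of skin replicate 3 (269.2 CPM). In skin replicate 1 it was the only muscle marker at 1 CPM or more. The part of muscle RNA in the Ttn call was not tested. Without any 1 diaphragm or meninges library the Ank3 call was lost, and the Ttn call was lost without diaphragm replicate 2 or 3 or any 1 meninges library.

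Against skin, 5 giants were lower in meninges and 1 was higher. Syne1, which links the nucleus to actin, had 228.6 ± 53.5 CPM in meninges and 1328 ± 465 CPM in skin (log2 -2.54, SE 0.40, edgeR adjusted p = 0.007434). Hmcn1, a giant of the extracellular matrix, had 289.7 ± 49.6 and 933.3 ± 208 CPM (-1.69, SE 0.29, edgeR adjusted p = 0.01225). Plec, which ties intermediate filaments to junctions, had 424.2 ± 99.6 and 1074 ± 183 CPM (-1.34, SE 0.29, edgeR adjusted p = 0.03594). The others that were lower, named after their values were seen, were the junction plakin Ppl (-3.42, edgeR adjusted p = 0.04061) and the muscle gene Neb (-3.43, edgeR adjusted p = 0.04748). Ppl was at 217.9 CPM or more in all 3 skin libraries. Of 6 keratinocyte markers on the list, 4 were in the table. They were at 0 in skin replicates 1 and 3 and summed to 137.4 CPM in replicate 2. What part keratinocyte RNA had in the Ppl difference was not tested. Dmd, dystrophin, was higher in meninges than in skin (4.19, SE 0.87, edgeR adjusted p = 0.0309). It had 83.29 ± 57.29 CPM in meninges, 114.7 ± 74.75 CPM in diaphragm and 4.545 ± 3.322 CPM in skin, so skin was the low tissue. Its difference between diaphragm and skin was 4.66 (SE 0.89, edgeR adjusted p = 0.07059, DESeq2 adjusted p = 5.508e-07). Mural cell markers summed to 311.2 to 1029 CPM in meninges, 271.4 to 490.4 CPM in diaphragm and 27.81 to 196.0 CPM in skin. Their part in the Dmd difference was not tested. The Syne1 call held without each of the 9 libraries in turn, and Hmcn1 lost it only without meninges replicate 3. Plec lost it when replicate 1 or 3 of either meninges or skin was left out, and Dmd and Ppl when replicate 2 or 3 of either was. Neb kept it in 2 of 9 fits, those without diaphragm replicate 1 or skin replicate 3. With limma voom in place of edgeR, the Dmd call (4.24, adjusted p = 0.2451) and the Neb call (-3.26, adjusted p = 0.1367) were lost. The median log2 difference of the 43 giants was -0.28 against diaphragm and -0.34 against skin, beside 0.05 and 0.08 over all tested genes. Between diaphragm and skin edgeR called 0 giants, where it called 0.0337% of all genes higher and 0.00674% lower in diaphragm. Over the 3 comparisons in the order above, 13, 13 and 9 giants passed an unadjusted p under 0.05, DESeq2 called 4, 9 and 4, and limma voom called 4, 6 and 0.

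Partners of AHNAK showed no tissue difference that passed the edgeR test with TMM scaling. Of 15 tested genes of the complex and its reported partners, edgeR called 0 in any of the 3 comparisons. At an unadjusted p under 0.05 there were 1, 2 and 2 for meninges against diaphragm, meninges against skin and diaphragm against skin, beside 10.1%, 13.8% and 11.8% of all genes. DESeq2 called 1, 0 and 1 of the partners, and limma voom called 1, 1 and 0. S100a10, the small protein that AHNAK binds, had 25.6 ± 12.0 CPM in meninges, 58.7 ± 26.9 CPM in diaphragm and 58.4 ± 19.9 CPM in skin (edgeR adjusted p = 0.6342 for meninges against diaphragm and 0.5007 against skin). Anxa2, the annexin of that complex, had 108.3 ± 6.4, 188.6 ± 64.0 and 148.1 ± 6.9 CPM (edgeR adjusted p = 0.5305 and 0.7351). Dysf, dysferlin, had 99.7 ± 30.2, 103.7 ± 34.9 and 72.2 ± 54.9 CPM, and its relative Myof had 30.8 ± 14.99, 15.5 ± 26.7 and 13.8 ± 13.5 CPM. The 2 most abundant partners were Actb, actin, and Smad1, which carries signals of bone morphogenetic proteins. Actb had 1058 ± 162, 873.3 ± 223 and 568.6 ± 11.6 CPM, and Smad1 had 355.7 ± 117, 340.5 ± 91.6 and 550.7 ± 71.3 CPM. For meninges minus skin, Actb was at 0.90 (edgeR adjusted p = 0.1652), and limma voom called it (0.93, adjusted p = 0.04279). Without scaling factors edgeR called it too (1.25, adjusted p = 0.03995). Prx, the nearest relative of both genes, was low and uneven, with 10.8 ± 12.5 CPM in meninges, 1.85 ± 2.69 CPM in diaphragm and 2.19 ± 3.797 CPM in skin. The median log2 difference of the partners was 0.13 for meninges against diaphragm and 0.90 for meninges against skin, against 0.05 and 0.08 over all tested genes.

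Annexins, S100 proteins and the membrane repair genes gave 0 genes called by edgeR in any comparison, of 9, 9 and 22 tested. At an unadjusted p under 0.05, in the same order of comparisons, there were 0, 0 and 0 annexins, 2, 1 and 2 S100 genes, and 1, 0 and 1 repair genes, beside the same 10.1%, 13.8% and 11.8% of all genes. DESeq2 called 1, 1 and 2 of the S100 genes and limma voom 1, 0 and 0, while neither called an annexin or a repair gene. Among them, S100a6, a calcium-binding protein, had 27.3 ± 15.6 CPM in meninges, 69.2 ± 16.4 CPM in diaphragm and 110.3 ± 35.5 CPM in skin (meninges against skin, edgeR adjusted p = 0.1512 and DESeq2 adjusted p = 0.01222). S100a11 had 98.9 ± 39.4, 109.9 ± 18.1 and 134.8 ± 17.8 CPM, and Anxa5, which binds exposed phosphatidylserine, had 146.5 ± 47.9, 152.3 ± 134 and 118.4 ± 16.5 CPM. The most abundant repair genes were Ehd2, an ATPase at the neck of caveolae (474.7 ± 259, 562.2 ± 49.0 and 521.5 ± 47.4 CPM), and Capns1, the small subunit of calpains (317.7 ± 79.2, 295.4 ± 38.5 and 385.6 ± 63.4 CPM).

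Caveolae are flask-shaped pits of the endothelial membrane. Of 7 tested genes for them, edgeR called 1 lower in meninges than in diaphragm, 2 lower in meninges than in skin and 0 between diaphragm and skin. In that order, 5, 4 and 1 passed an unadjusted edgeR p under 0.05, beside 10.1%, 13.8% and 11.8% of all genes. DESeq2 called 3, 4 and 0, beside 4.53%, 8.14% and 5.85% of all genes. The limma voom calls were 1, 2 and 0, beside 1.35%, 2.79% and 0.00674%. Cav1, their main coat protein, had 153.4 ± 57.1 CPM in meninges, 922.3 ± 127 CPM in diaphragm and 458.3 ± 70.6 CPM in skin. It was 2.59 lower on the log2 scale in meninges than in diaphragm (-2.59, SE 0.35, edgeR adjusted p = 0.005366), a call that held without each of the 9 libraries. Against skin it was -1.58 (SE 0.34, edgeR adjusted p = 0.03595). Of the 9 fits with 1 library left out, only those without diaphragm replicate 1 or meninges replicate 1 kept that call. Pacsin2, which bends the membrane there, had 95.3 ± 20.5 CPM in meninges and 327.4 ± 40.0 CPM in skin (-1.78, SE 0.38, edgeR adjusted p = 0.0367), a call lost without any 1 meninges or skin library. Cav1 was highest in diaphragm, whereas Ahnak and Ahnak2 were highest in skin.

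Of 11 tested subunits of voltage-gated calcium channels, edgeR called 0, 1 and 0 for meninges against diaphragm, meninges against skin and diaphragm against skin. In that order, 3, 3 and 5 passed an unadjusted edgeR p under 0.05, beside 10.1%, 13.8% and 11.8% of all genes. DESeq2 called 3, 1 and 4, beside 4.53%, 8.14% and 5.85% of all genes. The limma voom calls were 0, 1 and 0, beside 1.35%, 2.79% and 0.00674%. Cacna1e, the pore of R-type channels, had 41.0 ± 9.1 CPM in meninges, 44.0 ± 10.6 CPM in diaphragm and 298.0 ± 103 CPM in skin. It was lower in meninges than in skin (-2.86, SE 0.47, edgeR adjusted p = 0.009342) in the full fit and without each of the 9 libraries. Diaphragm against skin was of like size but missed the threshold in edgeR (-2.76, SE 0.46, adjusted p = 0.05205), and DESeq2 called it (adjusted p = 5.561e-07). The L-type pore gene Cacna1c, whose channel AHNAK is known to bind through the beta subunit, had 88.1 ± 65.0, 7.55 ± 13.04 and 2.26 ± 2.78 CPM, and its subunit Cacnb2 had 3.01 ± 4.35, 3.45 ± 4.11 and 0.0410 ± 0.0389 CPM. Cacna1g, a T-type pore, had 87.5 ± 68.7, 0.0369 ± 0.0638 and 14.95 ± 22.97 CPM. For these 3 genes no comparison passed the edgeR test. DESeq2 called Cacna1g in meninges against diaphragm (adjusted p = 0.0006511) and in diaphragm against skin (adjusted p = 0.01697), and edgeR called the former without skin replicate 1 (adjusted p = 0.01145), with the 2 tissues fitted alone (0.01778) or with no filter on low counts (4.606e-06).

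With meninges replicate 1 as the only meninges library, 0 of the 12 calls named above for giants, caveolae and calcium channel genes passed the threshold, in a fit where the lone library is assumed to vary like the others. The directions stayed and the sizes were similar for the firmest of them: Cav1 against diaphragm was -2.19 (edgeR adjusted p = 0.1122), Syne1 against skin -2.22 (0.07586), Hmcn1 against skin -2.02 (0.07586) and Cacna1e against skin -2.79 (0.2633). Without scaling factors, the edgeR calls of Ttn against diaphragm and of Cav1, Pacsin2, Plec, Ppl and Neb against skin were lost. With the 2 tissues fitted alone, those of Cav1, Pacsin2, Plec, Ppl, Neb and Dmd against skin were lost. Ahnak and Ahnak2 kept their direction in all of these fits.

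**Figure D5:**
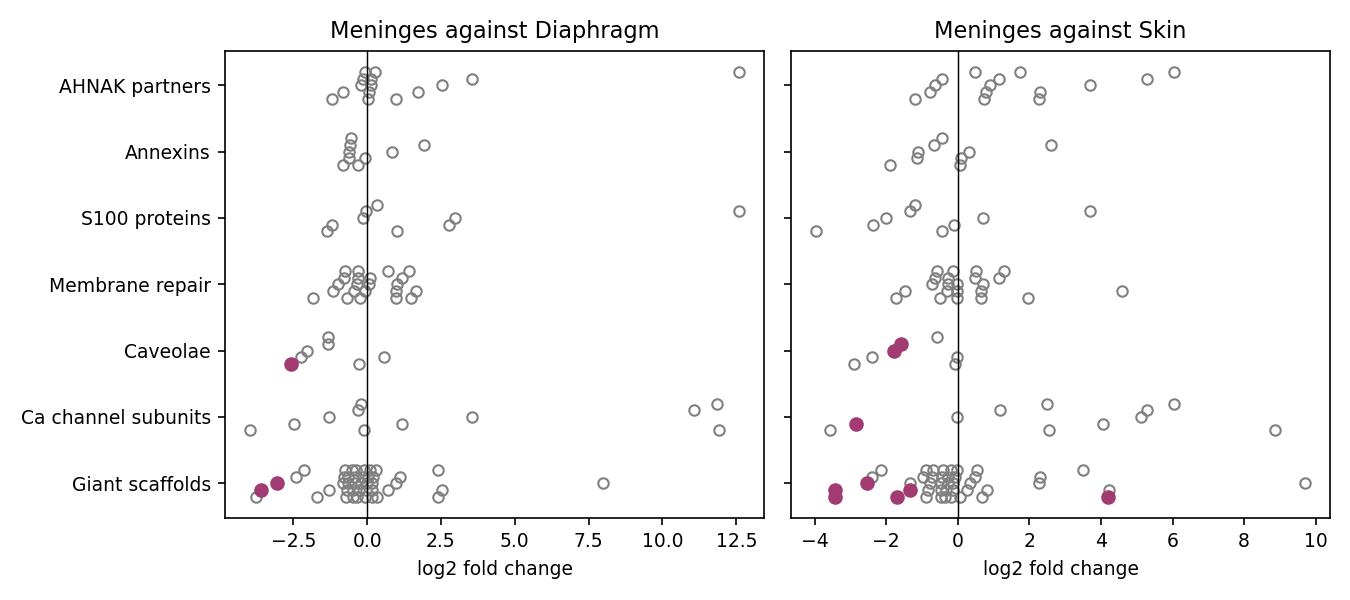
Fitted log2 differences (x axis) of the tested genes of each list for meninges against diaphragm and meninges against skin, with filled points for genes called at an adjusted p under 0.05. Filled points appear for caveolae, calcium channel subunits and giants, and none for AHNAK partners, annexins, S100 proteins or membrane repair. The largest values belong to genes with few or no counts in 1 of the tissues compared, so their fitted size depends on the prior count. Cacna1g, for example, had 87.5 CPM in meninges and 0.0369 CPM in diaphragm.

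The genes whose pattern was most like that of each member were named by Pearson's correlation of log2 CPM over the 9 libraries. Since the libraries share their tissues and their makeup of cells, the correlations are a description. For Ahnak, among 4651 candidates whose log2 CPM averaged 5 or more, these were Fam102b (0.976), Dapk1 (0.961), Dtx1 (0.959), Tgfbi (0.958), Lcn2 (0.957), Lrrc1 (0.957), Fam63b (0.954), Glis3 (0.952), Ugcg (0.949) and Wipf3 (0.949). Each had its lowest mean in meninges and its highest in skin. Fam102b, for example, had 56.1 ± 14.6, 315.5 ± 151 and 455.1 ± 164 CPM, and Wipf3 had 44.3 ± 15.2, 471.9 ± 43.3 and 929.2 ± 148 CPM, both wider ranges than that of Ahnak. Ahnak2 came at place 125 on that list, with r = 0.821.

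For Ahnak2, among 8733 candidates whose log2 CPM averaged 3 or more, the genes most like it were Dock9 (0.980), Nr2f2 (0.969), Ppp2r3a (0.968), Cldn5 (0.962) and Tmod2 (0.954). Nr2f2 encodes COUP-TFII, a factor of venous and lymphatic endothelial identity, and had 238.0 ± 64.6 CPM in meninges, 299.6 ± 49.8 CPM in diaphragm and 628.2 ± 93.0 CPM in skin. Cldn5, the main claudin of endothelial tight junctions, had 113.1 ± 33.5, 136.8 ± 28.1 and 220.9 ± 28.9 CPM. Dock9, an activator of Cdc42, had 625.9 ± 183, 975.5 ± 184 and 1835 ± 413 CPM. Ahnak stood at place 147 on this list, and the lists of 10 and 5 names had no gene in common.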

How the data were processed

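Libraries were made from RNA of sorted cells by Arcturus PicoPure extraction and amplification with Ovation RNA-Seq System V2, as stated per the labels' protocols. The authors deposited whole-number read counts per Ensembl gene, made with FastQC, STAR and HTSeq on mm9, per the submitters' processing notes. Tool versions, annotation, strandedness and the treatment of reads that match more than 1 place are not stated in these sources. The table held 23018 genes and all 9 libraries. It gave a symbol for 15831 genes, 7100 more were named by Ensembl identifier from the reference name table, and 87 stayed unnamed. Ahnak2 was among those named by identifier. Exon lengths, repeats and sequences came from GENCODE M21 (22906 genes matched), with the 3 abutting models of Ahnak2 joined. No protein sequence is shown.

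Counts were filtered with filterByExpr, scaled by TMM and fitted over all 9 libraries with edgeR 4.0.16 (glmQLFit and glmQLFTest, R 4.3.3), with Benjamini-Hochberg adjustment over 14831 genes and a threshold of 0.05. Python 3.11.15, pandas 2.3.3 and matplotlib 3.10.9 did the rest. The pipeline was tested on simulated data. Alternatives were other scaling factors, filters, DESeq2 1.42.0, limma 3.58.1 voom, a replicate block, 2 tissues alone, each library left out, and meninges replicate 1 alone. Scales per LEC marker were chosen after seeing the data. The members and gene lists were chosen with earlier results of these data known. Named genes were the called members of each list (up to 4 by lowest p per comparison), the 2 of the highest level in lists with fewer than 2 calls, S100a10, Anxa2, Dysf, Myof and Prx, and the 10 and 5 genes most like Ahnak and Ahnak2. Intervals from counting alone are narrow at these depths, and the 3 libraries per tissue limit the precision.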

Additional observations from a re-analysis of the deposited data

How the results depend on the processing

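The direction of the Ahnak and Ahnak2 differences held under every scaling factor, filter and tool tried, and changed only on the scales per LEC marker. Per LEC marker sum and per Prox1, Ahnak in meninges minus diaphragm was 0.01 and 0.06, and in meninges minus skin -0.16 and -0.26; diaphragm minus skin was -0.18 per LEC marker sum. Ahnak2 gave -0.05 and 0.00, and -1.39 and -1.49. Going without scaling factors moved the median of all genes by 0.19, 0.34 and 0.15 in the 3 comparisons. Ahnak was then at -0.53 and -0.78 in meninges against diaphragm and skin, and at -0.25 in diaphragm minus skin. With meninges replicate 1 alone, Ahnak against skin was -1.32, and Ahnak2 was -0.07 and -1.70. Leaving out each library gave Ahnak -0.86 to -0.65, -1.22 to -1.07 and -0.49 to -0.28, and Ahnak2 -1.16 to -0.48, -2.77 to -2.09 and -1.81 to -1.44. The likeness lists kept few names: 2 of 10 and 2 of 5 by Spearman, and 2 to 8 and 2 to 4 without 1 library. Genes called numbered 51, 196 and 6 for meninges against diaphragm, meninges against skin and diaphragm against skin. They numbered 298, 610 and 305 with no filter, 631, 1112 and 815 with DESeq2, and 200, 414 and 1 with limma voom; the cause was not tested. Meninges replicate 1 alone left 11 and 58, on fewer samples. The 2 tissues alone gave 108 for meninges against diaphragm and 1 for diaphragm against skin, which had 14 without factors and 13 with the filter of 50 counts. Leaving out 1 library gave 19 to 105 (lowest without meninges replicate 3, highest without skin replicate 1), 74 to 236 (lowest without meninges replicate 3) and 2 to 58 (lowest without diaphragm replicate 1, highest without skin replicate 2). Over all tested genes, deviations from the tissue mean correlated at -0.021 to 0.051 between same-numbered libraries of different tissues. Between libraries of other numbers they correlated at -0.057 to 0.039. Genes of low level weigh on such correlations, so they cannot show whether same-numbered libraries shared mice or pools. With a replicate block, edgeR called 16 genes for diaphragm against skin, and Ahnak was at -0.73, -1.15 and -0.42. The edgeR calls of Plec (adjusted p = 0.05449) and Neb (0.07328) against skin were lost with that block. For the 12 calls of named genes, 167 of 240 checks under other settings kept the call and 73 lost it. Named genes that were not called gained a call in 34 of 1234 checks, and 0 calls reversed.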
